A study of Danio rerio with 14 samples.

Results

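H3K27ac regions shared by 3 of the 4 tumors, and by no normal thymus sample, numbered 1103 of the 98262 regions called in the study (1.12%). They were chosen by their calls alone. Peaks from the lists of 4 tumors and 3 thymus samples were merged into regions when they shared 1 bp or more, a region counted as called in a sample when it held any peak of that sample, and a region was kept when exactly 3 tumors and no thymus sample called it, on any sequence of the assembly. Tumor 4 lacked 507 of these regions, tumor 2 lacked 253, tumor 1 lacked 199 and tumor 3 lacked 144. Of them, 4 were assigned to *mycb* with its neighbor *fam49ba* and 1 to *gata3*. Stretches drawn around these regions held 6 and 4 of the 1103. Regions on the numbered chromosomes were also ranked by the length of their peaks. The first was assigned to *mir2195* among those lacking tumor 1, to *ncam1a* for tumor 2 and to *flrt3* for tumor 3. The first among those lacking tumor 4 carried no gene name.

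H3K27ac is an acetylated form of histone H3 that marks active promoters and enhancers, the stretches of DNA where transcription factors bind to raise transcription of a gene that may lie far away. Several enhancers often act on one gene, and tumors of the same kind can use different ones. IRF4 is a transcription factor of lymphocytes, MYC drives cell growth and division, and GATA3 is needed for early T-cell development in mammals.

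The study profiled this mark by ChIP-seq (immunoprecipitation of chromatin followed by sequencing) in transgenic zebrafish. Tumors 1, 2, 3 and 4 came from fish with human IRF4 and the fluorescent reporter mCherry under the zebrafish lck promoter, which is active in T lymphocytes, and tumor cells were collected once the tumor phenotype had developed. Thymus samples 2, 3 and 5 were mCherry-positive sorted cells from fish at 3 months that carried lck-driven mCherry without IRF4. The p53 genotype of these 4 tumors and the number of fish behind a thymus library are not settled by the labels, the age of the tumor fish is not given there, and tumor 4 was placed in its group by its title because its label names no tissue.

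The lists held 26449, 32781, 30199 and 19809 peaks in tumors 1, 2, 3 and 4, and between 31647 and 40335 in the thymus samples. Of all 98262 regions, tumor 1 called 24.5%, tumor 2 called 30.9%, tumor 3 called 28.8% and tumor 4 called 17.6%. The lists carry no read totals and the study states only a nominal depth, not one for each library, so the depth behind each list is unknown, and a list in which a region is not called may still hold signal there below the caller's threshold. The names given to peaks contain the word batch in thymus 2 and thymus 5 and in no other list. Among the lists without that word only thymus 3 represents the thymus, and with that sample alone as the thymus 1668 regions met the rule.

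The first question was which tumor lacked the regions. Because the calls chose them, these counts are a description and carry no test. Regions lacking tumor 4 made up 46% of the 1103 (0.516% of all merged regions), those lacking tumor 2 made up 22.9% (0.257%), those lacking tumor 1 made up 18% (0.203%) and those lacking tumor 3 made up 13.1% (0.147%). Tumor 4, with the shortest list, was thus the tumor most often missing. That order did not hold under every choice of peaks. When every list was limited to its 19809 widest peaks, which shortens the longer lists and removes their narrow peaks at once, 994 regions met the rule and the counts were 189 lacking tumor 1, 356 lacking tumor 2, 141 lacking tumor 3 and 308 lacking tumor 4, so that tumor 2 and no longer tumor 4 was missing most often.

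Each tumor was then set against the regions that the other 3 tumors all called. Where no thymus sample called the region, tumor 4 was missing from 52.2% of 972 regions (95% interval 49 to 55.3, exact binomial), tumor 2 from 35.2% of 718, tumor 1 from 30% of 664 and tumor 3 from 23.6% of 609. Where all 3 thymus samples called it, tumor 4 was missing from 9.51% of 8822 regions, tumor 2 from 4.35% of 8346, tumor 1 from 1.31% of 8089 and tumor 3 from 0.968% of 8061. Every tumor was missing more often from regions without a thymus call than from those called in all 3 thymus samples. The order of the 4 tumors was the same in both. The second set needed calls in more lists, and these shares, like the counts, are a description. The shares fell step by step with the number of thymus samples that called the region. In the same order of tumors, from tumor 4 to tumor 3, they were 46.5, 27.9, 15.6 and 11.8% with 1 thymus sample and 26.1, 11.4, 5.62 and 3.45% with 2. Regions are not replicates of a tumor and these intervals cover counting error only. Regions of all 7 lists were also wider, with a median of 1438 bp against 614 bp in members. In tumor 1 their peaks had a median fold enrichment over whole cell lysate of 4.42, against 3.18 in members. The parts of width and strength in these shares were not tested.

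**Figure D1:**
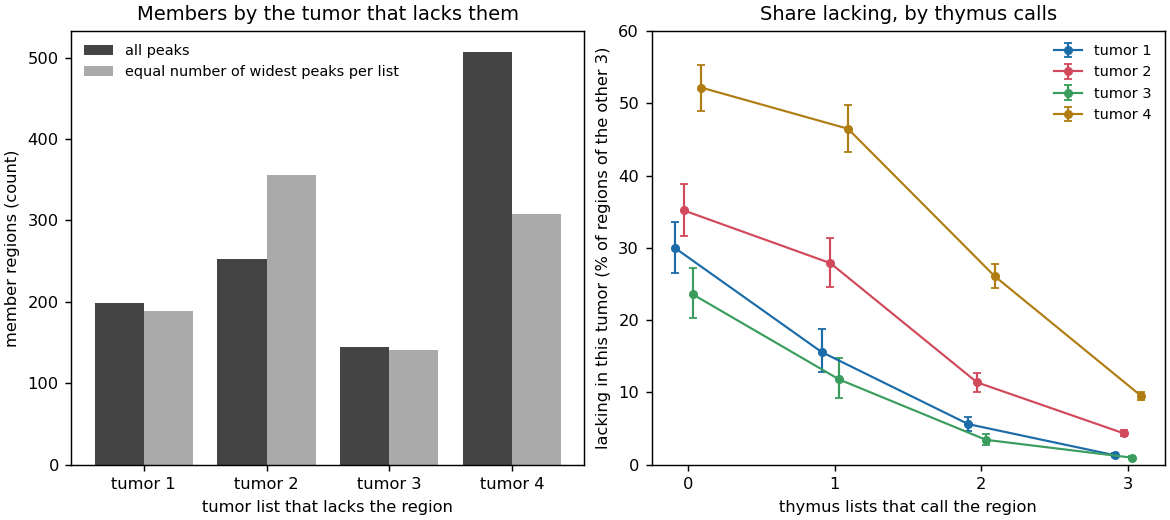
Left, number of member regions (y axis) that lack each tumor (x axis), for all peaks (dark bars) and for an equal number of the widest peaks of each list (light bars). Right, share of the regions called in the other 3 tumors that lacks the tumor named by color (y axis, %), by the number of thymus lists that call the region (x axis), with 95% exact binomial intervals; all 4 lines fall from left to right, for tumor 4 from 52.2 to 9.51%.

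The members were short stretches. Their median width was 614 bp (quartiles 432 and 922, range 147 to 4078), between the 424 bp of regions of exactly 2 tumors and the 929 bp of regions of all 4 tumors. The classes differed little in this respect, with medians of 591, 631, 575 and 618 bp for regions lacking tumors 1, 2, 3 and 4. The peaks of the 3 tumors did not always cover the same bases. The stretch covered by all 3 had a median of 151 bp, or 27.2% of a member's width, and 113 members (10.2%) had no base covered by all 3, since their peaks were joined in a chain.

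Peak width entered the rule through the overlaps, since wider peaks meet other peaks more readily, so it is given within each tumor as a description. The median width of a peak was 352 bp in members and 414 bp in regions of all 4 tumors for tumor 1. The corresponding medians were 318 and 467 bp for tumor 2, 364 and 470 bp for tumor 3, and 248 and 296 bp for tumor 4. Peaks in members were narrower in 4 of 4 tumors, by a mean of 91.6 bp (a difference of -91.6 ± 45.5 bp, SD, n = 4). The difference carries no test, and with 4 tumors the planned exact sign-flip test could not have passed the threshold of 0.05.

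Strength could be described for tumor 1 only, whose list gives the fold enrichment over whole cell lysate and −log10 of the p-value for each peak. Its 975 peaks in members had a median fold enrichment of 3.18 (quartiles 2.83 and 3.74) and a median −log10 p of 5.38. Peaks of tumor 1 in regions of all 4 tumors had medians of 3.35 and 5.8, and those in regions of exactly 2 tumors 2.99 and 4.75. The values of members thus lay between these classes and far below those in regions of all 7 lists, where the medians were 4.42 and 11.2. Among the classes, median fold enrichment was 3.15 in regions lacking tumor 2, 3.01 in those lacking tumor 3 and 3.25 in those lacking tumor 4.

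The next question was where the members lie relative to the 465 regions that all 4 tumors and none of the thymus samples called. The median distance to the nearest of these was 823 kb (quartiles 118 and 2397.8), and 163 members lay on a sequence that holds none. This median rested on the lists used. It was 361 kb without tumor 4, 515 kb without tumor 2, 531 kb without tumor 1 and 450 kb without thymus 5, and 390 kb with thymus 3 as the only thymus list. Leaving out a list also changes the regions to which the distance is taken. Without a tumor they are those of all 3 tumors left, and with fewer thymus lists fewer regions are removed. With all 7 lists, 29 members were within 1 kb of a region of all 4 tumors and 222 (20.1%) within 100 kb. The study joined peaks into super-enhancers across gaps of up to about 13 kb, here called the joining distance, and 103 members (9.34%) lay within it. That share was 14.2% without tumor 1 and 14.5% without tumor 4, where calls in 2 of the other 3 tumors were required. Most members therefore did not flank a region that all 4 tumors and no thymus sample called. Distances to regions called in all 4 tumors and also in thymus were not taken. By class, 13.9% of members lacking tumor 3 lay within the joining distance, 10.1% of those lacking tumor 1, 8.88% of those lacking tumor 4 and 7.11% of those lacking tumor 2, and the medians were 952, 687, 809 and 954 kb in that order.

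The share within the joining distance was 8.01% for regions of exactly 2 tumors, 4.88% for regions of 3 tumors and 1 thymus sample, 3.13% for regions of a single tumor, 1.84% for regions of all 7 lists and 1.13% for regions of the 3 thymus samples alone. Regions of all 4 tumors lay that close to another of their kind in 19.4% of cases. Members thus stood close to regions of exactly 2 tumors in this measure and above the classes with thymus calls. The shares are of all regions of a class, whereas the medians above leave out regions on a sequence with no region of all 4 tumors. Such regions were 163 of the 1103 members and 171 of the 799 regions of 3 tumors and 1 thymus sample. Nearby regions are not independent, so no test is attached to the shares.

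**Figure D2:**
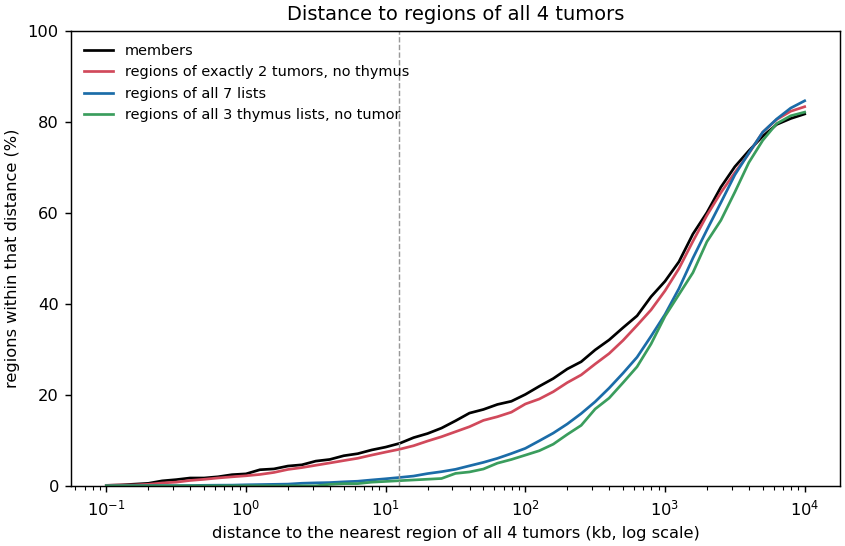
Cumulative share of regions (y axis, %) by distance to the nearest region of all 4 tumors (x axis, kb, log scale), for members and for 3 other classes; the dashed line marks the joining distance. At that line members stand at 9.34%, regions of exactly 2 tumors at 8.01%, regions of all 7 lists at 1.84% and regions of the 3 thymus samples alone at 1.13%.

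The nearest member lacks tumor 4 and lies at chr8:11196356-11197076 on the GRCz11 assembly, 77 bp from a region of all 4 tumors. It was covered by 721 bp of peaks in tumor 1, 457 bp in tumor 2 and 179 bp in tumor 3. The next were chr13:27502220-27503084, assigned to the helicase gene *ddx43* and lacking tumor 2, at 103 bp, and chr8:43489195-43490739, lacking tumor 3, at 132 bp. The farthest was chr4:77086197-77086628, lacking tumor 3, at 51720.4 kb. Gene names here are those that the study's annotation of regions on the same assembly gives to the nearest start site, which may be far away, and only part of that annotation was used. They were at hand for 230 of the 1103 members, 42 of those lacking tumor 1, 68 lacking tumor 2, 35 lacking tumor 3 and 85 lacking tumor 4.

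The distance from each member to the nearest call of the missing tumor was also taken. The closest peak of the tumor that lacks the region was at a median of 8.1, 13.8, 6.62 and 9.78 kb in the classes lacking tumors 1, 2, 3 and 4. It lay within 1 kb for 18.6, 11.5, 20.1 and 12.2% of the members of the class, and within the joining distance for 57.3, 47, 56.9 and 53.3%. Members lacking tumor 2 thus lay farthest from a call of the tumor that lacks them. The nearest thymus call was at a similar range, for members lacking tumor 4 at medians of 12.9, 6.06 and 6.34 kb for thymus 2, 3 and 5, and for members lacking tumor 2 at 19.8, 15.3 and 13.6 kb. Regions of all 4 tumors lay at medians of 14.5, 10.9 and 10.5 kb from these thymus lists. Of them, 44.3, 53.1 and 54.4% were within the joining distance, so such nearness was not particular to members.

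Some members met the rule by a few bases. A peak of a list that lacks the region lay within 50 bp of 41 members, within 100 bp of 71 and within 500 bp of 246. On chromosomes 1 to 25, the closest inside the limit were chr16:29505630-29505846 (lacking tumor 1), whose neighbor abuts it with 0 bp between, chr5:37655668-37656910 (lacking tumor 4) at 1 bp, and chr21:13364568-13364815 (lacking tumor 1) at 5 bp. Just outside it on these chromosomes, the regions starting at chr11:8434540 and chr20:32148529 were left out because a thymus peak overlapped the peaks of 3 tumors by 2 bp, and that starting at chr20:12699844 because of 6 bp. Regions left out with an overlap of at most 50 bp numbered 37, and those with at most 100 bp numbered 246.

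The regions with the longest peaks in each class were examined one by one, and the 5 of each class were those with the highest median rank of covered length over the 3 calling tumors. Among regions lacking tumor 1, the first was chr3:45508842-45512753, assigned to the microRNA gene *mir2195*. Peaks covered 3643 bp of it in tumor 2, 3454 bp in tumor 3 and 2823 bp in tumor 4. Its nearest tumor 1 peak lay 1.72 kb away, its nearest thymus peak 17.2 kb away and a region of all 4 tumors 0.902 kb away. All 3 tumors covered 2284 bp of its 3912 bp in common. At chr14:44932311-44934018, assigned to the zinc transporter gene *slc30a9*, the cover was uneven, with 1243 bp in tumor 2, 223 bp in tumor 3 and 1678 bp in tumor 4. The other named regions of the class carried no gene name. These were chr5:17926422-17928263 with 1300, 1063 and 1839 bp in tumors 2, 3 and 4, chr23:9119712-9121498 with 1119, 1704 and 383 bp, and chr21:1060494-1061564 with 1071, 921 and 1004 bp. The last was covered nearly in full by all 3 tumors.

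Among regions lacking tumor 2, the highest ranked was chr21:23667518-23670683, assigned to *ncam1a*, which encodes a neural cell adhesion molecule. Peaks covered 2444 bp in tumor 1, 2903 bp in tumor 3 and 1212 bp in tumor 4, and the nearest tumor 2 peak was 1.71 kb away. It was one of the members close to a region of all 4 tumors, at 1.7 kb. An unnamed region at chr11:19674090-19677351 had 1794 bp in tumor 1, 2711 bp in tumor 3 and 2306 bp in tumor 4. Its closest tumor 2 peak was 70.5 kb away, so that tumor 2 had no call in a wide stretch there. The region at chr20:27497929-27500283, assigned to *mir203b*, had 2279, 1564 and 1921 bp in tumors 1, 3 and 4, with the nearest tumor 2 peak 116 kb away. At chr10:25851554-25853489, assigned to the cation channel gene *trpc4a*, the cover was 1831, 1936 and 1098 bp. On the same chromosome, chr10:25654870-25657382 had 1720 and 2076 bp in tumors 1 and 3 but 156 bp in tumor 4, with no base common to the 3.

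Among regions lacking tumor 3, chr13:34173538-34177615 was the widest of all members at 4078 bp and was assigned to *flrt3*, which encodes a leucine-rich repeat membrane protein. Peaks covered 3994 bp in tumor 1, 4078 bp in tumor 2 and 3432 bp in tumor 4. The nearest tumor 3 peak was 23.6 kb away and the nearest thymus peak 8.55 kb away, so that the 3 tumors shared a broad block that tumor 3 and the thymus samples lacked. The region chr14:27897522-27899354 was assigned to *tsc22d3*, whose product is induced by glucocorticoids and restrains T-cell activation in mammals. It was covered by 1716 bp in tumor 1, 692 bp in tumor 2 and 1640 bp in tumor 4, and both a tumor 3 peak at 1.14 kb and a thymus peak at 0.85 kb were close. Unlike the *flrt3* region, it thus lay beside calls of the lists that lack it. The other 3 carried no name. They were chr20:17777986-17780582 with 781, 1816 and 2512 bp in tumors 1, 2 and 4, chr20:37679469-37681541 with 1049, 1782 and 1819 bp, and chr13:15212223-15213857 with 1516, 1594 and 422 bp.

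Among regions lacking tumor 4, chr20:30604954-30608392 ranked first, with 1894 bp in tumor 1, 3417 bp in tumor 2 and 1060 bp in tumor 3, and with a tumor 4 peak 3.16 kb away. The region chr7:46375737-46378325 was assigned to *ccne1*, which encodes cyclin E1 and drives cells into DNA replication. Its cover was 1863 bp in tumor 1, 1683 bp in tumor 2 and 2153 bp in tumor 3, with the smallest spread of the 5 named regions. The nearest tumor 4 peak was 21.3 kb away, whereas a thymus peak lay at 1.37 kb. The region chr3:33961914-33963884, assigned to the transcription factor IIF subunit gene *gtf2f1*, had 788, 1724 and 1740 bp in tumors 1, 2 and 3. The region chr7:62817241-62819511, assigned to the protocadherin gene *pcdh7b*, had 2271, 1649 and 1562 bp, and the closest tumor 4 peak was 137 kb away. The unnamed chr21:17078367-17080789 had 2211 bp in tumor 1 and 1695 bp in tumor 3 but only 214 bp in tumor 2.

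**Figure D3:**
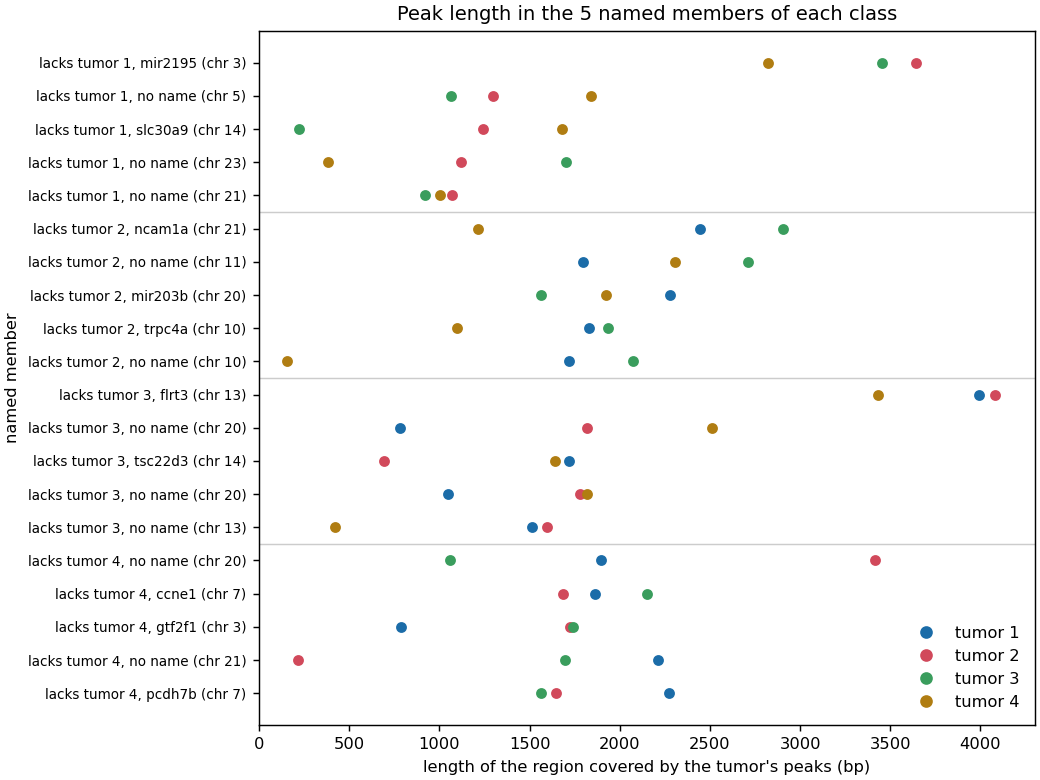
Length covered by the peaks of each calling tumor (x axis, bp; points colored by tumor) in the 5 named regions of each class (y axis, with the study's gene name where there is one and the chromosome). In the *flrt3* and *mir2195* regions the lowest of the 3 points lies at 3432 and 2823 bp, whereas the unnamed regions on chromosome 10 and on chromosome 21 lacking tumor 4 have one tumor at 156 and 214 bp.

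Neighboring members tended to lack the same tumor. Each member was paired with the next one along its sequence. Of 41 pairs within 1 kb, 30 (73.2%) lacked the same tumor, and of 82 pairs from 1 kb to the joining distance, 46 (56.1%) did. The share was 54.9% of 82 pairs from there to 50 kb, 48.6% of 107 pairs from 50 to 200 kb, 31.6% of 244 pairs from 200 to 1000 kb and 31% of 368 pairs beyond. It thus fell with distance. In all, 76 of 123 pairs within the joining distance lacked the same tumor (61.8%, 95% exact binomial interval 52.6 to 70.4), against 191 of 612 pairs over 200 kb apart (31.2%, 27.6 to 35). Among pairs without a member lacking tumor 4, which is the largest class, the shares were 64.2% within the joining distance and 33.9% over 200 kb. Members this close can belong to a single broad stretch of the mark, so the pairs are not independent and the shares are a description. When each list was limited to its 19809 widest peaks, these shares became 72.7 and 30%.

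**Figure D4:**
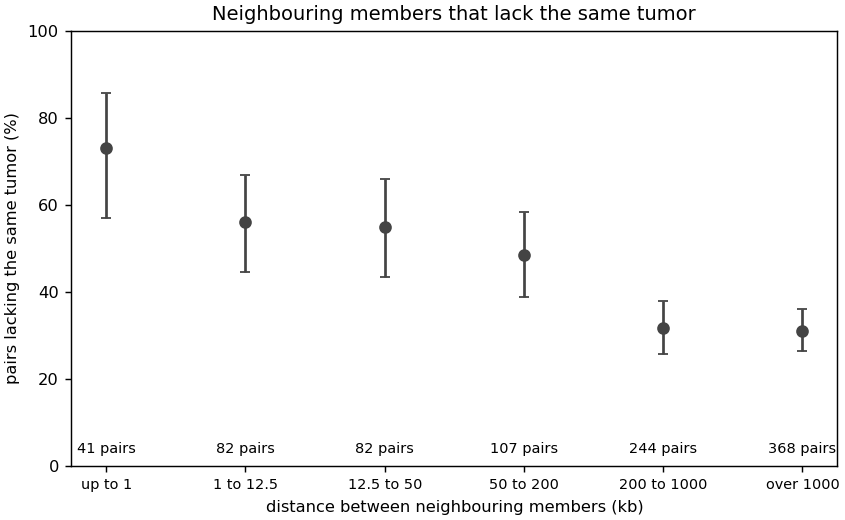
Share of neighboring member pairs that lack the same tumor (y axis, %, with 95% exact binomial intervals) by the distance between the pair (x axis, kb), with the number of pairs above the axis. The share falls from 73.2% of the 41 closest pairs to 31% of the 368 farthest.

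Linking members within the joining distance gave 884 members that stood alone, 74 runs of 2, 17 runs of 3 and 5 runs of 4. In 46 of the 74 runs of 2, both members lacked the same tumor. Among the 22 runs of 3 or more members, 10 lacked a single tumor throughout: 5 lacked tumor 4, 2 lacked tumor 2, 2 lacked tumor 3 and 1 lacked tumor 1. Those lacking tumor 4 included runs assigned to *vegfc* at chr1:39057009-39066422, which encodes a growth factor for lymphatic vessels, and to *ccr6a* at chr20:30594893-30608392. Between the members of the *vegfc* run lay 1 region with a thymus call. The span of the *ccr6a* run also held 1 region of all 4 tumors and 1 region with a thymus call. The *flrt3* region closed a run of 3 members lacking tumor 3 at chr13:34166646-34177615.

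The 4 members at chr11:19653607-19677351 all lacked tumor 2, in a span of 23.7 kb with no region called in thymus. Their peaks covered 175, 555, 379 and 1794 bp in tumor 1, 775, 807, 205 and 2711 bp in tumor 3, and 298, 1330, 74 and 2306 bp in tumor 4. The nearest tumor 2 peak was between 50 and 70.5 kb from each of them. This was the only one of the 5 runs of 4 in which every member lacked the same tumor.

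The other runs of 4 were mixed. At chr3:20779017-20788508, assigned to *spop*, an adaptor of a ubiquitin ligase, 3 members lacked tumor 4 and 1 lacked tumor 1. The 3 had 340, 694 and 799 bp in tumor 1, 845, 1047 and 967 bp in tumor 2, and 955, 538 and 576 bp in tumor 3. The run at chr19:40302956-40310536, assigned to *fam133b*, also had 3 members lacking tumor 4, with 1 lacking tumor 3. In the run at chr15:25849919-25867585, assigned to *mir212*, 2 members lacked tumor 1 and 2 lacked tumor 3, and the widest had 185 bp in tumor 1, 2991 bp in tumor 2 and 1400 bp in tumor 4. At chr23:9096302-9121498, 2 members lacked tumor 4 and 2 lacked tumor 1, with a region of all 4 tumors between them.

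A list of 20 genes was looked for by name, a choice from tumor genes of the study and known T-cell genes. Of these, 7 had a region in the part of the annotation used here and 4 had a member. The 4 were *mycb*, *gata3*, *psip1a* and *patl1*, with 7 members. The study selected these genes in part on the same libraries, so their presence is not independent evidence. A further 5 genes that the study shortlisted in its tumors, *h2afx*, *midn*, *ncaldb*, *sec22ba* and *sla2*, were looked for after values had been seen, and among them *sla2* had a member. *id3*, *runx3* and *cd8a* had annotated regions but no member. The annotated regions come from the study's comparison of tumors with thymus on these libraries, which placed *id3* among regions activated in thymus. The share of all annotated genes with a member is not given here, so nothing is read from these counts or absences.

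Around *mycb*, the zebrafish MYC ortholog, a stretch was drawn from the first to the last member assigned to it, with 50 kb added on each side. It holds the 4 assigned members by construction. In all, 6 members lay within this stretch of 152 kb (chr2:32090083-32242550), and they formed a pair of runs that lacked different tumors. The first 3 lacked tumor 2. At chr2:32140083-32141274 peaks covered 1064 bp in tumor 1, 1192 bp in tumor 3 and 897 bp in tumor 4, at chr2:32143481-32143952 they covered 344, 344 and 472 bp, and at chr2:32145550-32146082 they covered 386, 117 and 533 bp. Tumor 2 had its nearest calls at 5.02, 2.34 and 0.208 kb from these. The remaining 3 lacked tumor 4, whose nearest calls lay at 2.45, 0.159 and 5.07 kb. They were chr2:32179966-32180830 with 865 bp in tumor 1, 553 bp in tumor 2 and 420 bp in tumor 3, chr2:32181561-32183120 with 1067, 519 and 533 bp, and chr2:32191526-32192550 with 1025, 127 and 263 bp. In the last 2 of these no base was covered by all 3 tumors. The nearest thymus peaks were at 2.93, 0.637 and 5.07 kb, and 1 region with a thymus call lay between these 3 members. That region was called in all 4 tumors and all 3 thymus samples. The tumor 4 peak 0.159 kb from chr2:32181561-32183120 belonged to it.

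Tumors 1 and 3 thus called all 6, tumor 4 called the first 3 and tumor 2 the last 3. The stretch held 39 regions, of which 32 had calls in tumors only, 7 had a thymus call and 1 was shared by the 4 tumors alone. That region lay 61.4 kb from the first member and 10.1 kb from the last. Of all 98262 merged regions, 1.12% were members. Those without a thymus call were 27671 of a single tumor, 2721 of exactly 2 tumors, the 1103 members and 465 of all 4 tumors. Because the stretch was drawn around members, nothing is read from its counts. The study's annotation names 4 of the 6 members for *mycb* together with its neighbor *fam49ba*, so the lists do not tell which of the genes a region belongs to. The members chr2:32179966-32180830 and chr2:32181561-32183120 carried no name in the part of it used here.

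**Figure D5:**
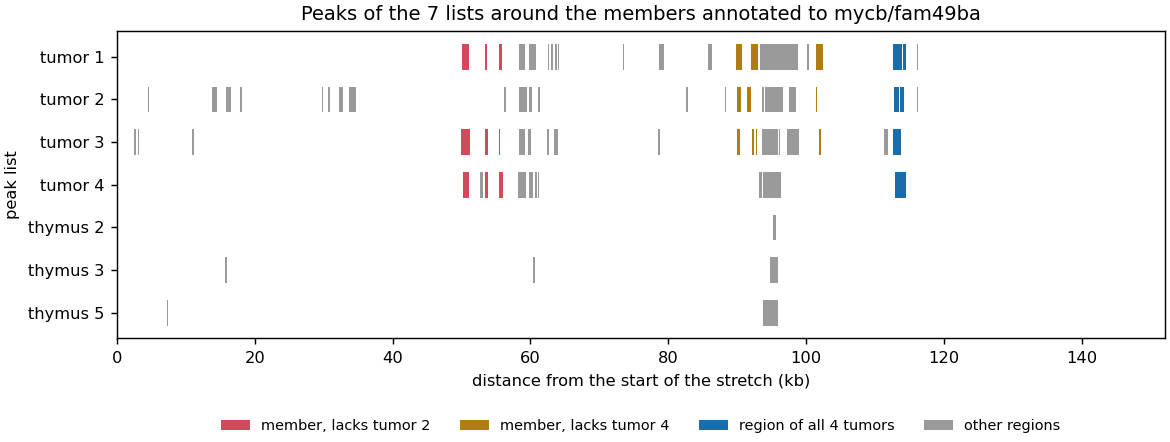
Peaks of the 7 lists (rows) along the 152 kb around the members assigned to *mycb*/*fam49ba*, by distance from the start of the stretch (x axis, kb); color marks members lacking tumor 2, members lacking tumor 4, the region of all 4 tumors, and all other regions (gray). Gray includes regions called in all 4 tumors and also in thymus. The 3 members on the left have no peak in tumor 2, the 3 to their right have none in tumor 4, and none of the 6 has a thymus peak.

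Around *gata3*, 4 members lay in a stretch of 101 kb (chr4:24891000-24991622) with 38 regions, of which 30 had tumor calls only. This stretch is the member assigned to *gata3* with 50 kb added on each side, so it holds that member by construction. As for *mycb*, nothing is read from its counts. The member assigned to the gene itself, chr4:24941000-24941622, lacked tumor 4 and had 623 bp in tumor 1, 197 bp in tumor 2 and 362 bp in tumor 3. A further pair lacked tumor 4, chr4:24918078-24918903 with 826, 265 and 642 bp and chr4:24922773-24925060 with 2288, 168 and 389 bp. In all 3 the longest cover was in tumor 1 and the shortest in tumor 2. The fourth, chr4:24982517-24983346, lacked tumor 2 and had 708 bp in tumor 1, 231 bp in tumor 3 and 118 bp in tumor 4. This stretch held 2 regions that all 4 tumors and no thymus sample called. The *gata3* member lay 17.3 kb from the nearer of them and 2.27 kb from a tumor 4 peak. Regions called in all 4 tumors and also in thymus lay in both stretches and are not among those 2.

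The members of *psip1a* and *patl1* both lie on chromosome 1 and lacked tumor 4. *psip1a* is the ortholog of the gene for a human chromatin-binding coactivator. Its member, chr1:28122771-28123341, had 544 bp in tumor 1, 192 bp in tumor 2 and 543 bp in tumor 3, with a thymus peak 0.631 kb away. *patl1* is the ortholog of a human gene for an mRNA decay factor. At chr1:52772643-52775188, peaks covered 533 bp in tumor 1, 178 bp in tumor 2 and 2546 bp in tumor 3, so that the width of this member came from tumor 3.

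Members assigned to 12 genes known from lymphocyte biology were picked out by their names after the values had been seen, as examples only. Of the 14 members, 8 lacked tumor 4, a class that holds 46% of all members, so nothing is read from this count. *sla2*, an adaptor that dampens T-cell receptor signals, had 1317 bp in tumor 1, 291 bp in tumor 2 and 1455 bp in tumor 3 at chr23:14799001-14800670. *plcg2*, a phospholipase of antigen receptor signaling, had 690, 1505 and 1098 bp at chr18:13257725-13259347. *zbtb16a*, whose mouse ortholog directs innate-like T cells, had 702, 662 and 1018 bp at chr21:23503220-23504596, and *ikzf2*, an Ikaros-family factor, had 499, 731 and 1791 bp at chr9:40070093-40071883. These 4 regions had calls in the same 3 tumors, with the longest cover in tumor 2 for *plcg2* and in tumor 3 for the others.

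The chemokine receptor gene *ccr6a* had a pair of members lacking tumor 4, chr20:30594893-30596372 with 1029, 1305 and 977 bp in tumors 1, 2 and 3 and chr20:30596997-30598140 with 630, 1144 and 621 bp. A region of all 4 tumors lay 0.213 kb from the latter. *unc93b1*, needed for the transport of Toll-like receptors, also had 2, at chr1:44402458-44404097 and chr1:44404481-44406028, 120 and 118 kb from the nearest tumor 4 peak. The regions of the other genes lacked tumor 3 or tumor 1. *tox2*, an HMG-box factor, lacked tumor 3 and had 895 bp in tumor 1, 2327 bp in tumor 2 and 1007 bp in tumor 4 at chr6:58130413-58133116. *havcr1*, a T-cell surface receptor in mammals, lacked tumor 1 and had 1916, 924 and 690 bp in tumors 2, 3 and 4 at chr21:29109132-29111207. *il6st*, the signaling subunit of the interleukin-6 receptor, and *dll4*, a Notch ligand, lacked tumor 1, and the adaptor gene *grap2b* lacked tumor 3.

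The members were spread over all 25 chromosomes, from 0.58% of the regions of chromosome 4 to 1.53% of those of chromosome 23. A further 204, or 1.25% of the regions there, lay on other sequences of the assembly, of which 102 (50%) lacked tumor 4. Such sequences can repeat part of a chromosome, and whether some members stand for the same locus was not tested. On chromosome 1, 30 of 38 members (78.9%) lacked tumor 4, and on chromosome 12, 16 of 19 (84.2%) did and none lacked tumor 2. Chromosome 1 held 3.38, 4.69, 3.24 and 3.13% of the peaks of tumors 1, 2, 3 and 4, and chromosome 12 held 2.33, 2.72, 2.23 and 2.51%. The part of these peak shares in the counts was not tested. Among regions with a thymus call that the other 3 tumors shared, tumor 4 was missing from 16.7% on chromosome 1 and 12% on chromosome 12. It was missing from 24.9% of such regions on the other sequences and from 16% over all sequences. On chromosome 24, 9 of 21 members (42.9%) lacked tumor 3, and in such shared regions tumor 3 was missing from 2.02% there and 2.04% over all sequences. These chromosomes were picked out after their counts were seen, and the counts are small and carry no test.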

How the data were processed

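The data were H3K27ac ChIP-seq peak lists, from 4 tumors and 3 samples of thymus. Input libraries were not analysed here. The authors aligned single-end reads to GRCz11 with Bowtie2, removed duplicates and ran MACS2 in broad mode at a p-value threshold, separately for each library and against its whole cell lysate. The deposited values are positions (start and end). Only for tumor 1 did the authors' caller also give a score, the ratio to background (fold enrichment), and −log10 values for p and for q, of which the score and q were not used. The lists hold no counts, so the study's test on reads could not be run. Minimum peak widths ranged from 50 to 128 bp, which sets how narrow a call can be.

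Peaks of the 7 lists were merged where they overlapped by at least 1 bp. Covered length is the length of a region under the peaks of a list. Within each class members of chromosomes 1 to 25 were ranked by covered length as a percentile of each list, and the 5 with the highest median over the calling tumors were named, with those at the limits of the rule and of the distances, the runs with the most members, and the genes looked for by name. Other names were chosen after values were seen. Members and lists were chosen with earlier results of these data known. Gene names came only from the study's annotated regions on GRCz11. No genome of that build was at hand, so no sequences are shown. Positions are 1-based.

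Intervals are exact binomial (95%). The planned exact sign-flip test of peak width within tumors is not reported, because width enters the rule through the overlaps. Alternatives were chromosomes 1 to 25, a minimum width, equal list lengths, merging within 500 bp, calls that need 50% of a region, leaving out each list, and leaving out the lists with a batch word. The merging code was tested on simulated lists, where 800 of 800 planted regions were recovered, which follows from the rule. Software was Python 3.11.15 with SciPy 1.17.1, NumPy 2.4.6 and, for plots, matplotlib 3.10.9.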

Additional observations from a re-analysis of the deposited data

Results flagged for a closer look

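No value passed the limit of Dixon's criterion. Over the 4 tumors, 7 measures were examined, among them the number of members lacking each tumor and the share lacking it among regions of the other 3, and 0 of 7 had a gap to the nearest tumor above the 95% critical value. Chance alone passes that limit in about 1 of 20 such groups, and with 4 tumors only a very isolated value can pass it. Several of the measures rest on the calls that chose the members, and the members called in a tumor are all those not lacking it. The 7 measures are therefore not separate, and no conclusion is drawn from this count.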

How the results depend on the processing

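Of 55 values from the alternatives that do not leave out 1 list, 43 were counted as unchanged, 12 moved and none changed sign. A count was unchanged within 1.5 times the count reported, and a share or median distance within its interval over regions. Regions are not replicates of a tumor. The width difference was unchanged if it kept its sign. Where calls needed 50% of a region this difference was -141 bp, outside the reported -91.6 ± 45.5 bp (SD), and is among the 43. The count of regions meeting the rule became 1668 without the lists with a batch word, where 403 lacked tumor 2 and 807 lacked tumor 4. With equal list lengths 308 lacked tumor 4. The other counts lacking tumor 4 were counted as unchanged from 507. They were 693 with a minimum width and 686 where calls needed 50% of a region. On chromosomes 1 to 25 the count was 405, and with merging within 500 bp it was 383. The share within the joining distance of a region of all 4 tumors was 6.17% with merging within 500 bp and 11.8% without the batch-word lists. The median distance to such a region was 711 kb with a minimum width of 128 bp, 582 kb with equal lengths, 1129.3 kb with merging within 500 bp, 1138.5 kb where calls needed 50% of a region and 390 kb without the batch-word lists. The cause of these shifts was not tested. The share of close neighbors lacking the same tumor was 72.7% with equal lengths, and across all settings it ranged from 60.3 to 74.2%, against 30 to 49.1% for pairs over 200 kb apart. The restriction to pairs with no member lacking tumor 4 was chosen after seeing the data.

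Leaving out each list in turn gave 1170 to 2537 regions, since without a tumor 2 of the 3 left must call a region and without a thymus sample fewer lists can remove it. The regions lacking a tumor ranged from 210 to 700 for tumor 1, 267 to 1218 for tumor 2, 151 to 619 for tumor 3 and 542 to 1498 for tumor 4. The share within the joining distance ranged from 9.23 to 14.5%, the median distance from 361 to 830 kb, the width difference from -108 to -72.6 bp and the share of close neighbors from 60.4 to 74.2%. Without a tumor, all but the last of these are taken against regions of all 3 tumors left. No paired analysis was possible because the numbers that tumors and thymus samples share belong to different fish and the results are counts and comparisons within a tumor. A stricter p-value threshold was not run, as 6 of the 7 lists hold no scores. Depth is unknown, so a region missing from a list may lie below the caller's threshold.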
